A study of Mus musculus with 10 samples.

Results

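The serpin superfamily was followed in whole testes of mice aged 10 days. Members were all probe sets whose platform annotation named a single gene with a symbol starting with Serpin, and they were grouped by clade, the letter after Serpin. There were 39 such probe sets for 30 genes, out of 20380 probe sets for 12393 genes that carried a single gene name. Clade E, which includes the type 1 plasminogen activator inhibitor and protease nexin, was not analysed here, nor were most of the mouse Serpina3 genes. RNA came from control mice, which carried AMHCre per the descriptions, and from SCARKO littermates, in which the response to androgen is removed from Sertoli cells alone. AMHCre is a Cre recombinase under the promoter of anti-Müllerian hormone, a Sertoli cell product, and the labels name no other allele of either group. Each array held a pool of 1 testis from each of 3 littermates, and there were 5 control pools and 5 SCARKO pools, made as 5 littermate pairs. The question behind the comparison is which serpin transcripts of the testis need androgen signalling in Sertoli cells. Because each array is a pool, the spread between arrays is one between pools of littermates.

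Serpins are proteins of a shared fold, most of which trap a serine protease. The protease cuts an exposed loop of the serpin, the serpin snaps into a new shape, and the pair stays locked together and is cleared. Some members have lost this activity and serve as chaperones, hormone carriers or signalling proteins. Clade A holds mostly secreted plasma-type inhibitors, clade B mostly intracellular ones that guard cells against their own or incoming proteases, and the smaller clades include antithrombin (C), C1 inhibitor (G), a collagen chaperone (H) and neuroserpin (I). In the testis, proteases and their inhibitors take part in tubule remodelling, germ cell movement and sperm maturation.

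Windows around the gene starts are shown for the 3 serpin genes that passed the test, and for Serpina3a, because it is the next protein-coding gene after Serpina5 in the annotation and was also measured. Each window runs from 250 bases before to 50 bases after the start, 5′ to 3′ on the gene's strand, from RefSeq on GRCm38.p6. The positions are chr12:104100863-104101162 (plus strand) for Serpina5, chr12:104112474-104112773 (plus strand) for Serpina3a, chr7:99353190-99353489 (minus strand) for Serpinh1 and chr13:34002745-34003044 (minus strand) for Serpinb6a, the more upstream of its 2 windows. Capitals in Serpina5 and Serpina3a mark AGAACA or its reverse complement TGTTCT, a hexamer that steroid receptors of the androgen and glucocorticoid type are known to bind. Capitals in Serpinh1 and Serpinb6a mark GGGCGG or its reverse complement CCGCCC, the GC box, common in promoters of broadly expressed genes.
Serpina5: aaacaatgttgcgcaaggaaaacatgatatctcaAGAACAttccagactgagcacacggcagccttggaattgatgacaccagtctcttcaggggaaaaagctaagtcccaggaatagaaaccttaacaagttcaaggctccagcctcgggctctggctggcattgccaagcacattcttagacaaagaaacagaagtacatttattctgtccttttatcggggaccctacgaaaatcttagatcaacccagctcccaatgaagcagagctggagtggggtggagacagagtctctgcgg
Serpina3a: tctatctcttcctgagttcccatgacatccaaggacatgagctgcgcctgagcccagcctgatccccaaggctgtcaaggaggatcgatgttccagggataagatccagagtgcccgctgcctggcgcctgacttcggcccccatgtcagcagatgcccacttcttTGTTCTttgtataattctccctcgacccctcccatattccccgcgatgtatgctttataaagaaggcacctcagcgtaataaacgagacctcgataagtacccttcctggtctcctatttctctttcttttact
Serpinh1: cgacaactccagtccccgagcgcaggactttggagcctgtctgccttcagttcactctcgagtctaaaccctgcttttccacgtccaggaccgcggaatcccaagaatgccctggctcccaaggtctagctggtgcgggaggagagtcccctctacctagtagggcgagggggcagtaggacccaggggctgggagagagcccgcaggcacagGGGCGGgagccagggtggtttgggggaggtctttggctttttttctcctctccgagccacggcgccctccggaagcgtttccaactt
Serpinb6a: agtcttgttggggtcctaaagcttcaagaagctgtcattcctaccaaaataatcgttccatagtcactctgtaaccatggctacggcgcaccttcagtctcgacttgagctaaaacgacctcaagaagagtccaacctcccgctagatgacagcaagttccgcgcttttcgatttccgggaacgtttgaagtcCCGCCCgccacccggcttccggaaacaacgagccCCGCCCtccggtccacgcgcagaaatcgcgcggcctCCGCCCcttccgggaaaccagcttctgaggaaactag

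The hexamer occurred once in the Serpina5 window, with its first letter 216 bases before the start, and once in the Serpina3a window, 84 bases before the start. On either strand it was present in 19% of all 32851 windows of the table. In clade A it was present in 15 of 22 windows (68.2%) and in clade B in 8 of 32 (25%). For serpin genes on the array it was present in 9 of 29 windows (31%), and for the tested ones in 2 of 9 (22.2%). It was in neither the Serpinh1 nor the Serpinb6a windows. Neighbouring clade A genes arose by duplication and share sequence, so their windows are not independent, and many of them belong to genes without a usable signal here. The full palindrome, AGAACA followed after 3 bases by TGTTCT, was present in 3 windows of the table and in none of the 63 serpin windows. TATAAA on the gene strand was present in the Serpina3a window, 29 bases before the start, and in 8.32% of all windows. The GC box occurred once in the Serpinh1 window and 3 times in the Serpinb6a window, against 35.7% of all windows with at least 1 match. None of these matches overlapped another in the 4 windows shown. A match is a description of the letters and says nothing of binding in these mice, and TATAAA and the GC box were searched after the values were seen.

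Signals were Affymetrix intensities in arbitrary units, and the trimmed mean was 100 on each of the 10 arrays. The titles and the longer descriptions disagree on the genotype in pairs 1 to 4 and match in pair 5. Groups were taken from the titles, so every direction given here rests on them. Log2 fold changes, given as SCARKO minus control with the standard error (SE), came from limma with the littermate pair as a block, and 0.05 was the limit of the adjusted p for a call. The labelled tissue was borne out by its markers, since all 14 Sertoli cell and all 12 germ cell markers had a mean above the signal of 19.3 under which probe sets were set aside as dim. All 4 measured markers of epididymis and all 4 of fat lay under the limit in every pool. Of 8 liver and plasma protein markers, 7 lay under it in every pool, the brightest being Apoa2 at no more than 12.2. The other, Ahsg, passed the filter, at 14.9 to 26.4 in control pools and 19.4 to 26.5 in SCARKO pools.

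Of the 30 serpin genes, 10 passed the filter on dim probe sets and 20 did not. The 10 were Serpina3a and Serpina5 of clade A, Serpinb1a, Serpinb6a, Serpinb6b and Serpinb9 of clade B, Serpinf1, Serping1, Serpinh1 and Serpini1. Of these, Serpina5 fell, Serpinh1 and Serpinb6a rose, and 7 did not pass. Over all genes 3.52% of 7973 were called lower and 2.17% higher, 5.69% in either direction, and 5.19% of 13576 probe sets were called. The 10 serpins had a median log2 fold change of 0.10, with 6 above and 4 below 0, against a median of 0.02 over all genes.

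**Figure D1:**
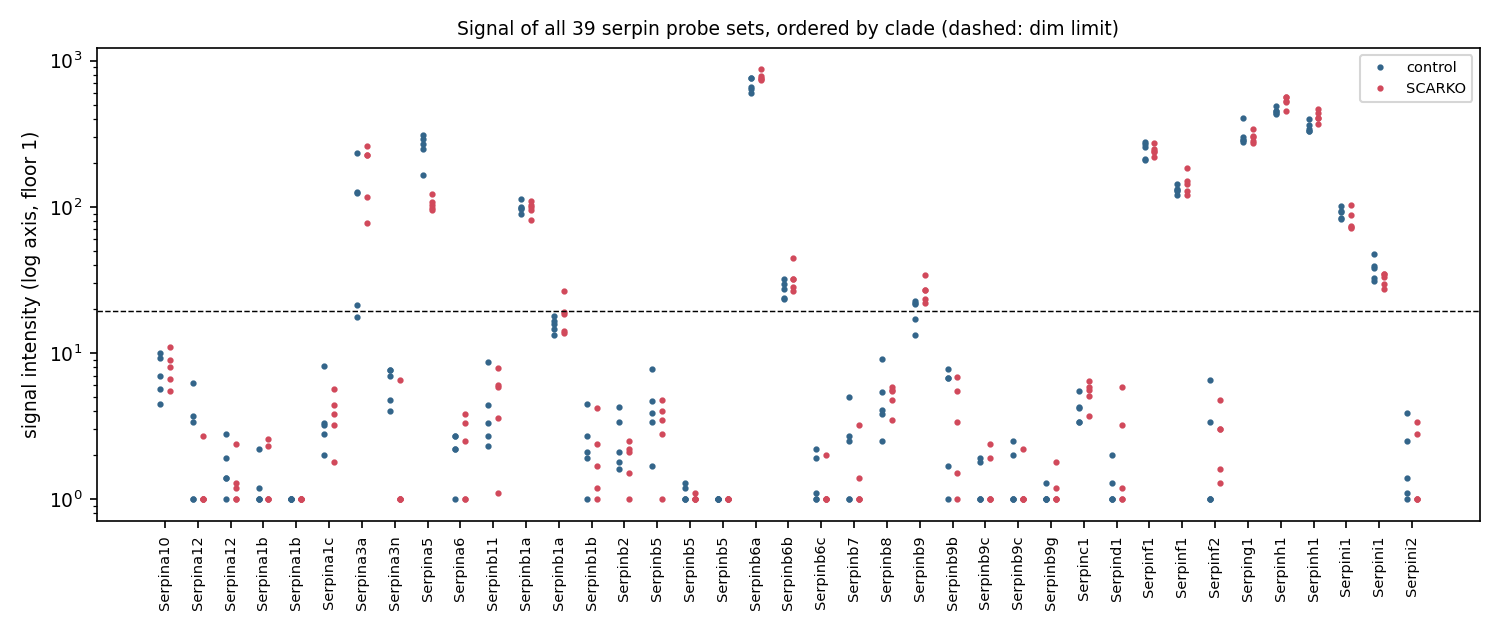
Signal intensity (arbitrary units, log axis, values under 1 drawn at 1) of the 39 serpin probe sets in the 5 control pools (blue) and the 5 SCARKO pools (red), ordered by clade, with a dashed line at the dim limit of 19.3. The probe sets of 20 genes lie under the line in every pool, and the groups of Serpina5 stand apart; heights of different probe sets are not comparable.

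Several serpins of blood plasma were among the dim genes. Serpinc1 (antithrombin) reached at most 6.4 in any pool, Serpind1 (heparin cofactor II) 5.9, Serpinf2 (the plasmin inhibitor) 6.5 and Serpina6 (the corticosteroid carrier of plasma) 3.8. The other dim clade A genes were Serpina1b and Serpina1c of the antitrypsin group, Serpina3n, Serpina10 and Serpina12, none above 11 in any pool. In clade B, Serpinb1b, Serpinb2 (the type 2 plasminogen activator inhibitor), Serpinb5 (maspin), Serpinb6c, Serpinb7, Serpinb8, Serpinb9b, Serpinb9c, Serpinb9g and Serpinb11 were dim, none above 9.1 in any pool. Serpini2 stayed at or under 3.9. A further 3 probe sets named several serpin genes each and were not members, and their highest signal was 4.7. A signal under the limit does not show that a transcript was absent, and no fold change is given for these genes.

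Serpina5, the protein C inhibitor (gene ID 268591, on chromosome 12), was the member with the clearest difference. It is a heparin-binding inhibitor of activated protein C, plasminogen activators and the sperm protease acrosin, and male mice that lack it are infertile. Control pools of pairs 1 to 5 had signals of 249.1, 164.6, 271.1, 310.7 and 288.9. SCARKO pools had 107.9, 95.7, 103.2, 122.7 and 97.9. The groups did not overlap, and the lowest control pool, that of pair 2, still lay above the highest SCARKO pool. Among all tested genes 5.26% had groups that did not overlap, and of the 10 serpins Serpina5 was the 1 that did not.

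The mean fell from 257 ± 56.3 to 105 ± 10.7 (SD, n = 5), which was 2.39-fold lower (log2 fold change -1.26, SE 0.09, limma adjusted p = 5.6e-05). Log2 ratios within pairs were -1.21, -0.78, -1.39, -1.34 and -1.56 for pairs 1 to 5, so pair 2 had the smallest fall. The spread lay in the controls, whose signals ran from 164.6 to 310.7, while SCARKO pools ran from 95.7 to 122.7. In pair 5, where titles and descriptions match on genotype, the ratio of -1.56 had the same sign as the mean of -1.18 over pairs 1 to 4. The fall was called with any 1 pair left out, from -1.38 without pair 2 to -1.18 without pair 5.

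In whole testis RNA, fewer cells of a type and less RNA per cell cannot be told apart. The summed signal of the 14 Sertoli cell markers ran from 6230 to 6645 in control pools and from 6184 to 6459 in SCARKO pools. Of them 2 were called lower, 3 higher and 9 not called, against 5.69% of all genes called in either direction. Cldn11 (log2 fold change -0.68) and Gata1 (-0.50) were lower, and Fshr (0.42), Gdnf (0.39) and Kitl (0.24) were higher. The summed signal of the 12 germ cell markers ran from 4318 to 5578 in control pools and from 4365 to 5171 in SCARKO pools. Of them 2 were called lower, Stag3 (log2 fold change -0.42) and Hspa2 (-0.31). Sycp3, Sycp1 and Tex101 lay from -0.29 to -0.21 and were not called. Dazl, Ddx4, Uchl1, Zbtb16, Kit, Stra8 and Dnd1 lay from 0.02 to 0.24 and were not called. Each sum is weighted to its brightest markers, such as Clu (control mean 2580) and Dazl (1146). The part of cell composition in the fall of Serpina5 was not tested.

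**Figure D2:**
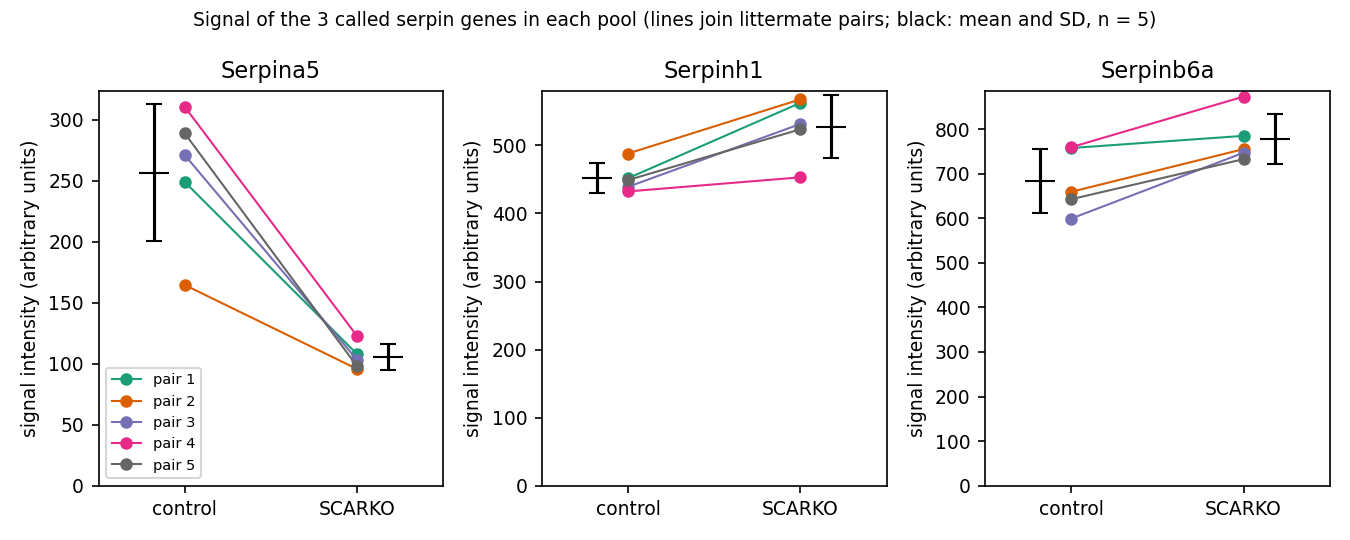
Signal intensity (arbitrary units, axes from 0) of Serpina5, Serpinh1 and Serpinb6a in control and SCARKO pools, with lines joining littermate pairs and the group mean and SD (n = 5) in black. All 5 lines of Serpina5 go down, from 164.6 to 310.7 in controls to 95.7 to 122.7 in SCARKO pools, and all 5 lines of the other two go up by a smaller amount.

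Serpina3a (gene ID 74069, on chromosome 12), the next protein-coding gene after Serpina5, belongs to a group of genes that was expanded in the mouse by duplication, so its signal is uncertain where copies share sequence with its probes. Control pools of pairs 1 to 5 had 124.5, 17.7, 21.3, 232.8 and 126.4. SCARKO pools had 78.1, 226.8, 227.0, 261.8 and 116.0. The groups overlapped widely, and the controls of pairs 2 and 3 were far below all other pools.

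The log2 fold change of Serpina3a was 1.29 (SE 0.56, adjusted p = 0.21), with a 95% interval from 0.07 to 2.51 before adjustment. It was higher in SCARKO in 3 of 5 pairs, at 3.68 and 3.41 in pairs 2 and 3 and 0.17 in pair 4, and lower in pairs 1 (-0.67) and 5 (-0.12). It did not pass. Its SE was the widest of the 10 tested serpins, the next being 0.16 for Serpinb9.

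Serpinh1 (gene ID 12406, on chromosome 7) encodes HSP47, a chaperone of the endoplasmic reticulum that binds procollagen and inhibits no protease. Control pools of pairs 1 to 5 had signals of 451.8, 488.1, 439.1, 432.4 and 449.1, and SCARKO pools had 562.5, 567.7, 531.5, 453.1 and 523.7. Each SCARKO pool was above its littermate control, but the groups overlapped, because the SCARKO pool of pair 4 lay below the control of pair 2. The mean rose from 452 ± 21.6 to 528 ± 45.8 (SD, n = 5), which was 1.16-fold higher (log2 fold change 0.22, SE 0.05, adjusted p = 0.018).

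A second probe set of Serpinh1 gave 331.4, 398.4, 339.2, 330.1 and 362.4 in control pools and 408.3, 468.5, 437.1, 404.8 and 367.8 in SCARKO pools. It rose by 0.24 (SE 0.05, adjusted p = 0.024), also in 5 of 5 pairs. Its name ends in x_at, which marks probes that may bind other transcripts too. The pair with the smallest ratio differed between the probe sets, pair 4 (0.07) for the first and pair 5 (0.02) for the second. The call of the first ended without the pair as a block (adjusted p = 0.083) and without pair 1 (0.070), 3 (0.084) or 5 (0.062).

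In clade B, all 4 tested genes lie on chromosome 13. Serpinb6a (gene ID 20719), an intracellular inhibitor of cathepsin G and trypsin-like proteases, had signals of 757.8, 659.5, 599.5, 759.7 and 643.0 in control pools of pairs 1 to 5. SCARKO pools had 785.1, 755.4, 747.2, 873.2 and 732.8. Each pair went up but the groups overlapped, with pair 1 the smallest at a log2 ratio of 0.05 and pair 3 the largest at 0.32. The mean rose from 684 ± 71.8 to 779 ± 56.2 (SD, n = 5), which was 1.14-fold higher (log2 fold change 0.19, SE 0.04, adjusted p = 0.027). The call ended without the pair as a block (adjusted p = 0.20) and without pair 2 (0.053), 3 (0.12), 4 (0.075) or 5 (0.079).

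Serpinb9 (gene ID 20723), the inhibitor of granzyme B, had signals near the dim limit. Control pools of pairs 1 to 5 had 21.8, 22.6, 13.2, 22.0 and 17.0, and SCARKO pools had 27.1, 27.1, 23.6, 22.1 and 34.0. Every pair was higher in SCARKO, with pair 4 almost level at a log2 ratio of 0.01 and pair 5 at 1.00. Its log2 fold change was 0.48 (SE 0.16, adjusted p = 0.11), with a 95% interval from 0.14 to 0.83 before adjustment, and it did not pass. Its control pools of pairs 3 and 5 lay under the dim limit of 19.3 while every SCARKO pool lay above it, so it passed the filter through the SCARKO group.

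Serpinb6b (gene ID 20708), a close relative of Serpinb6a, had 23.6, 31.9, 27.5, 23.9 and 29.6 in control pools of pairs 1 to 5 and 26.4, 28.5, 32.2, 32.2 and 44.6 in SCARKO pools. It was higher in 4 of 5 pairs (log2 fold change 0.25, SE 0.12, adjusted p = 0.28, 95% interval -0.02 to 0.52). Serpinb1a (gene ID 66222), an inhibitor of neutrophil elastase, had 98.4, 89.6, 96.5, 99.9 and 113.4 in control pools and 103.4, 110.4, 100.5, 81.5 and 95.3 in SCARKO pools. The Serpinb1a groups covered the same range (log2 fold change -0.02, SE 0.09, adjusted p = 0.92, 95% interval -0.22 to 0.17). A second, dim probe set of Serpinb1a ran from 13.3 to 17.9 in control pools and from 13.7 to 26.5 in SCARKO pools.

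**Figure D3:**
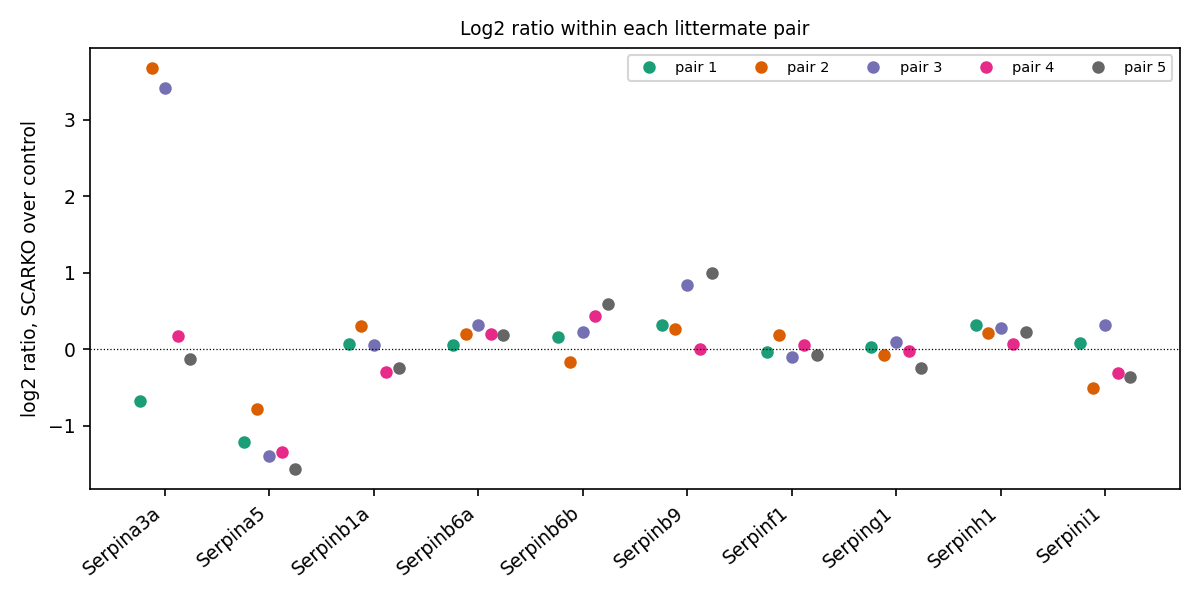
Log2 ratio of SCARKO over control in each of the 5 littermate pairs (colours) for the 10 tested serpin genes, brighter probe set of each. All 5 points of Serpina5 lie below 0, all 5 of Serpinb6a, Serpinb9 and Serpinh1 above it, and those of Serpina3a spread from -0.67 to 3.68.

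The remaining members were a secreted signalling protein, an inhibitor of complement and an inhibitor of tissue plasminogen activator. Serpinf1 (gene ID 20317, on chromosome 11), the pigment epithelium-derived factor, inhibits no protease and acts on blood vessel growth. Control pools of pairs 1 to 5 had 278.0, 209.3, 268.3, 211.4 and 256.2, and SCARKO pools had 271.3, 238.9, 249.9, 218.8 and 242.5. The groups covered the same range (log2 fold change 0.00, SE 0.06, adjusted p = 0.97, 95% interval -0.12 to 0.13). A second probe set of Serpinf1 was at 0.14 (SE 0.08, adjusted p = 0.34).

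Serping1 (gene ID 12258, on chromosome 2), the C1 inhibitor, had 300.0, 287.9, 279.2, 287.6 and 404.9 in control pools and 305.0, 273.8, 299.0, 283.9 and 341.9 in SCARKO pools. Pair 5 was the highest pair in both groups, and the groups overlapped (log2 fold change -0.04, SE 0.05, adjusted p = 0.71, 95% interval -0.16 to 0.08). Serpini1 (gene ID 20713, on chromosome 3), neuroserpin, had 83.5, 101.6, 83.1, 92.1 and 93.3 in control pools and 88.2, 71.3, 103.1, 74.2 and 72.7 in SCARKO pools. It was lower in 3 of 5 pairs (log2 fold change -0.16, SE 0.11, adjusted p = 0.46, 95% interval -0.40 to 0.08). Its second, dimmer probe set was at -0.23 (SE 0.13, adjusted p = 0.34).

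**Figure D4:**
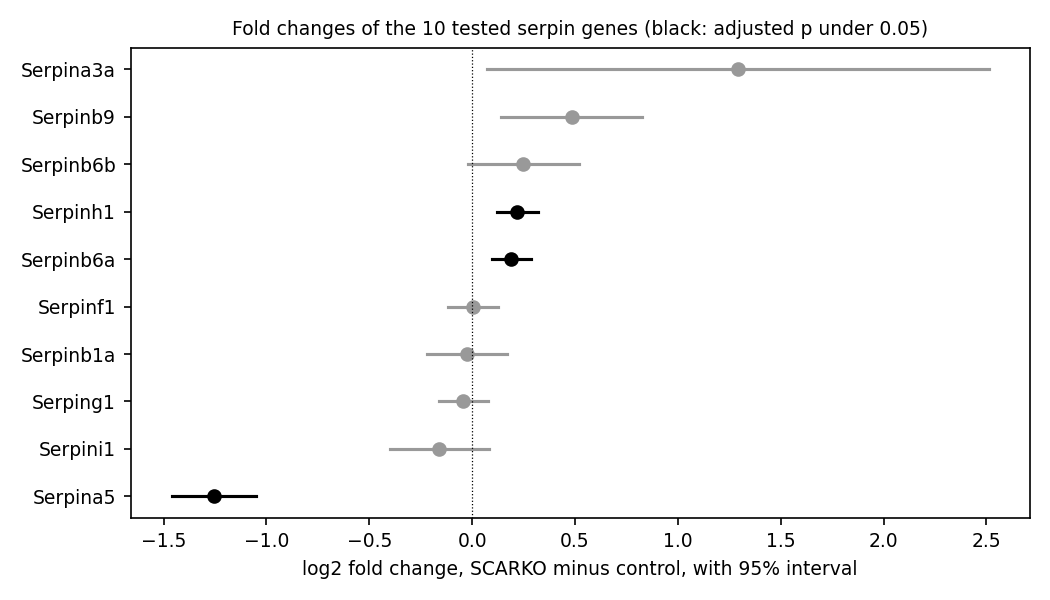
Log2 fold change of SCARKO minus control with its 95% interval for the 10 tested serpin genes, from limma with littermate pairs as a block, called genes in black. Serpina5 lies at -1.26, Serpinb6a and Serpinh1 at 0.19 and 0.22, and the interval of Serpina3a runs from 0.07 to 2.51.

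The proteases, receptors and clients that serpins act on were read from 6 lists. Over all genes 3.52% were called lower and 2.17% higher. In plasminogen activation, 5 of 9 listed genes were tested, of which 1 fell and 1 rose. Plat, which encodes tissue plasminogen activator, a target of Serpina5 and neuroserpin, ran from 188.7 to 248.0 in control pools and from 109.5 to 146.9 in SCARKO pools, without overlap. It fell by 0.76 on the log2 scale (SE 0.08, adjusted p = 0.00041). S100a10, a partner of annexin A2 in binding plasminogen, rose by 0.20 (adjusted p = 0.043). The call of S100a10 ended with any 1 pair left out (adjusted p = 0.056 to 0.13), without the pair as a block (0.32) and without the intensity trend (0.14), and its other probe set was at 0.09. The list median was 0.06, against 0.02 over all genes.

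Of 19 genes of coagulation and the protein C pathway, 6 were tested and 2 rose, against 2.17% of all genes called higher. F3, which encodes tissue factor, the trigger of coagulation, ran from 35.5 to 50.4 in control pools and from 49.4 to 73.7 in SCARKO pools, and rose by 0.64 (SE 0.11, adjusted p = 0.0084). F2r, the thrombin receptor gene, ran from 102.1 to 149.1 in control pools and from 150.3 to 218.1 in SCARKO pools, and rose by 0.50 (SE 0.08, adjusted p = 0.0036). A second F2r probe set was at 0.52 without passing (adjusted p = 0.093). The list median was 0.07, and 12 of its 19 genes lay under the dim limit in every pool.

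Of 5 tested trypsin-like and other secreted serine proteases, among 17 named on the array, Htra1, a protease that cuts matrix proteins, rose by 0.39 (SE 0.07, adjusted p = 0.010, or 0.062 without the intensity trend in the fit; list median -0.01). Its groups, 187.7 to 230.4 in control pools and 241.6 to 284.5 in SCARKO pools, did not overlap. Of 6 tested granule and lysosomal proteases and caspases, Ctsh, which encodes cathepsin H, rose by 0.53 (SE 0.08, adjusted p = 0.0041, list median 0.18). It ran from 97.5 to 135.9 in control pools and from 157.2 to 175.8 in SCARKO pools. By limma 5 of the 6 genes had an unadjusted p under 0.05, against 2833 of all 13576 probe sets. The latter count is by probe set, not by gene. Of the 5, Ctsl was lower, and Ctsb, Ctsk, Ctsh and the caspase gene Casp8 were higher. Ctsg, Gzmb and Elane, the granule proteases named above as targets of Serpinb6a, Serpinb9 and Serpinb1a, were dim and not tested. They reached at most 6.3, 6.1 and 8.8 in any pool.

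The collagens and their folding machinery, among which Serpinh1 works, were tested for 22 genes, and 1 fell. Hsp90b1, a general chaperone of the endoplasmic reticulum that also serves many other proteins, fell by 0.21 (SE 0.04, adjusted p = 0.0063), a call that ended without the pair as a block (adjusted p = 0.052) and without the intensity trend (0.079). The list median was -0.02, and no collagen gene was called by limma. An unadjusted p under 0.05 was found for 5 of the 22 genes, against 2833 of all 13576 tested probe sets, counted by probe set and not by gene. Of 7 tested genes of the complement C1 and lectin pathway, on which the C1 inhibitor acts, limma called 0. The unadjusted p was under 0.05 for 3 of them, and the list median was 0.11. The nearest was C1ra, at 0.25 on the log2 scale (adjusted p = 0.057, and 0.045 to 0.20 with 1 pair left out, under 0.05 without pair 2 alone), followed by C1qa at 0.17 (adjusted p = 0.20). Lists this short hold few calls at the rate of 5.69% over all genes, so a low count shows little.

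**Figure D5:**
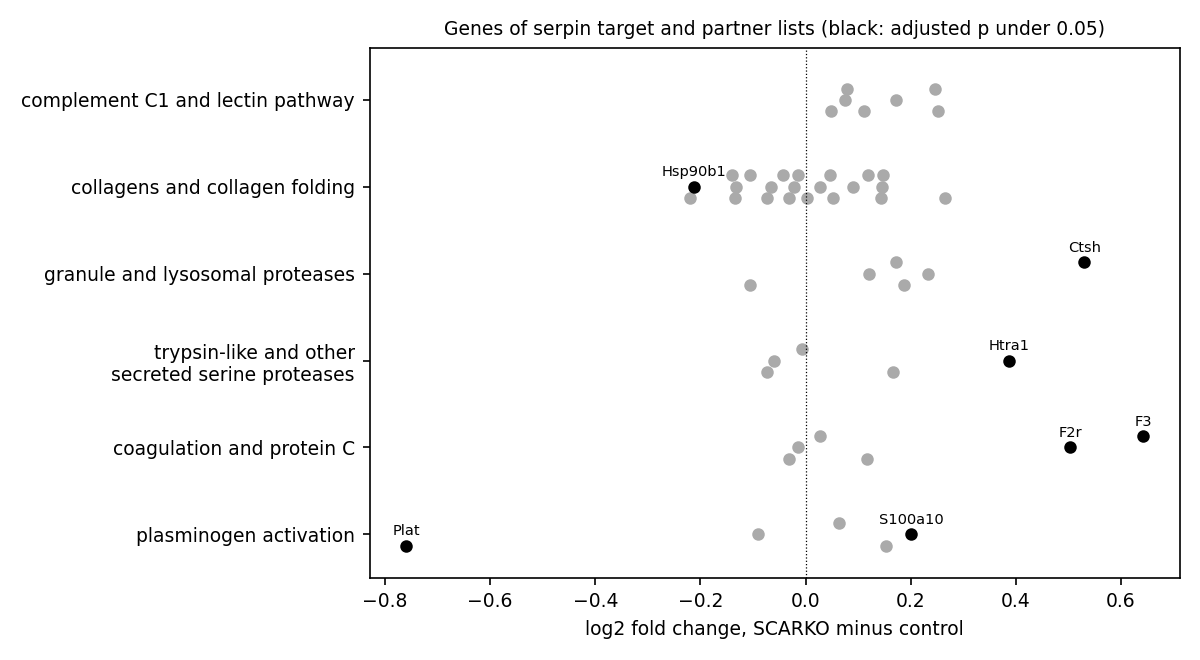
Log2 fold change of SCARKO minus control for the tested genes of 6 lists of serpin targets and partners, 1 point per gene, called genes in black with their names. Plat lies at -0.76 and Hsp90b1 at -0.21, while S100a10, Htra1, F2r, Ctsh and F3 lie between 0.20 and 0.64.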

How the data were processed

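Whole-testis RNA pools were measured on 10 Affymetrix arrays, 1 per pool, in 5 littermate pairs. The authors deposited linear signal intensities, 1 per probe set; MAS5 is named for 8 arrays per the submitters' processing notes, and its version and settings, like any tool for pair 5, are not stated there. The trimmed mean (2% at each end) was 100 on every array. Precision is limited by the 5 arrays per group.

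Groups and pair numbers came from the titles. Per the labels' protocols, pools were made as littermate pairs. Same-numbered pools deviated together in pairs 1, 2, 3 and 5, with correlations across probe sets of 0.27, 0.19, 0.19 and 0.39. When these pairs were mismatched, the closest match reached -0.008, 0.08, 0.11 and 0.01. In pair 4 the value was 0.1093, level with 0.1091 for its closest mismatch. The check therefore cannot tell pair 4 from a mismatched pair. The targeted gene is not reported here.

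Symbols in the platform annotation were replaced by those of GRCm38.p6 with the same gene identifier, which was found for all 30 serpins. The brightest kept probe set stood for a gene. Values under 1 were set to 1, log2 was taken, and the dimmest 40% of the 22626 probe sets by mean log2 value (a signal under 19.3) were left out, which kept 13576. They were fitted with limma 3.58.1 in R 4.3.3 (pair as a block, intensity trend, two-sided), with Benjamini-Hochberg adjustment over all 13576. On simulated data of the same size the fit recovered 75% of changes of 0.5 and 99% of changes of 1 on the log2 scale, with 6 false calls among 180. The simulated noise was normal and independent between probe sets, which real arrays need not be. No change under 0.5 was simulated, so rises as small as those of Serpinh1 and Serpinb6a are not covered.

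The members and lists were chosen with earlier results of these data known. Values are given for every tested serpin gene and every called list member, or the 2 with the smallest p. Promoter windows were found for 26 of the 30 serpin genes. Protein sequences were not used here. Marker lists for Leydig cells, myoid cells, macrophages, endothelium and erythroid cells held 6, 7, 6, 6 and 0 tested genes, of which limma called 0. The unadjusted p was under 0.05 for 2, 2, 1, 1 and 0 of these genes. By probe set, not by gene, it was so for 2833 of all 13576 tested.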

Additional observations from a re-analysis of the deposited data

Results flagged for a closer look

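The control pool of pair 5 had the highest Serping1 signal of its group, 404.9, against 279.2 to 300.0 in the other 4 control pools. Its gap to the nearest pool was 0.807 of the group's whole range on the log2 scale. Its SCARKO littermates, at 341.9, were also the highest of their group. Among 20 groups of 5 pools examined for the 10 tested serpin genes, this was the 1 that stood out, and chance gives about 1 in 20.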

How the results depend on the processing

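Serpina5 was called lower in every fit with groups from the titles, with log2 fold changes from -1.38 to -1.14. Its limma adjusted p was 5.6e-05 in the main fit but 0.047 without the filter on dim probe sets, close to the limit of 0.05. With groups from the descriptions, which turn pairs 1 to 4 round, its value was 0.63 (adjusted p = 0.90), and limma called 0 of 13576 probe sets (611 by unadjusted p under 0.05). The replicate block mattered for the rises. Without the block, as without the filter on dim probe sets or the intensity trend, 0 serpin genes were called higher by limma. By unadjusted p under 0.05, in either direction, 4 of 10, 6 of 30 and 5 of 10 passed in those fits. Over all probe sets, counted by probe set and not by gene, the numbers were 2103 of 13576, 3339 of 22626 and 2588 of 13576. Leaving out 1 pair gave 0 to 1 genes called higher, 0 without pair 3 or 5 (5 and 4 of 10 by unadjusted p under 0.05). Over all 13576 probe sets, 2129 and 2270 had an unadjusted p under 0.05 without pair 3 and without pair 5. The number of probe sets called was 404 without the block, 38 without the filter, 321 without the trend and 304 to 743 with 1 pair left out, 422 without pair 1, 304 without pair 3 and 344 without pair 5. Without the filter none of the 7 called genes of the target and partner lists was called (adjusted p = 0.054 to 0.17). With the lowest 60% left out, Serpinb6b and Serpinb9 had no value. Quantile normalization, 16 added before log2 and the mean of a gene's probe sets kept Serpina5, Serpinh1 and Serpinb6a called in the same direction.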

Other observations

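Serpina3n, an acute-phase serpin of clade A on chromosome 12, was dim throughout but was lower in SCARKO in all 5 pairs. Control pools of pairs 1 to 5 had 7.6, 4.0, 4.8, 7.7 and 7.0, and SCARKO pools had 6.5, 0.4, 0.6, 0.8 and 0.4. It was singled out after its values were seen. All 10 signals lay under the dim limit of 19.3, and without the filter its adjusted p by limma was 0.13.

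The controls of pairs 2 and 3 had Serpina3a signals of 17.7 and 21.3, against 78.1 to 261.8 in the other 8 pools.  The remaining control pools, at 124.5, 232.8 and 126.4, lay inside the range of the SCARKO pools.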
